A study of Mus musculus with 19 samples.

Results

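NMDA receptor subunit genes were followed in acute hippocampal slices from male Fmr1 KO mice and their wild-type (WT) littermates, in ribosome footprints and in cytoplasmic RNA of the same lysates. The members were chosen by symbol, and all 6 of 6 (Grin1, Grin2a, Grin2b, Grin2c, Grin2d and Grin3a) were among the 14459 genes of the deposited tables. Both groups were C57BL/6 males at postnatal day 28 to 35, the KO mice carrying the Fmr1 knockout and the WT mice the intact gene. No treatment separated the groups: slices of both genotypes, 400 µm thick, recovered at 30 °C for 3 to 4 h and were then held in 100 µg/ml cycloheximide. Each replicate pooled 8 to 10 slices from 6 to 8 mice, so the spread between libraries is one between pools and not between animals. CA3 was cut off so that CA1 made up more of the tissue, although the labels' source is hippocampal-cortical. The tables hold 3 KO and 4 WT libraries for each assay, and n is 3 for KO and 4 for WT throughout.

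NMDA receptors are glutamate-gated cation channels that open only when the membrane is also depolarised, and the calcium they admit triggers lasting changes of synaptic strength. Every receptor contains GluN1, the product of Grin1, which binds the co-agonist glycine or D-serine. The GluN2 subunits (Grin2a to Grin2d) bind glutamate and set the kinetics of the channel. GluN3A (Grin3a) also binds glycine, lowers calcium permeability and is best known from early postnatal neurons. In forebrain pyramidal neurons GluN2B is prominent early in life and GluN2A is added as synapses mature. GluN2C is best known from cerebellar granule cells and GluN2D from interneurons and the young brain. FMRP, the product of Fmr1, binds many neuronal mRNAs and associates with ribosomes.

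In KO slices the footprints of Grin2a, Grin2b and Grin3a were lower than in WT, by 13.8% to 20.9%, while those of Grin1, Grin2c and Grin2d did not pass the test. Levels are in TPM, which is scaled to gene length and library, so subunits can be set beside each other. Fold changes are log2 values of KO over WT with their SE, and a call is an adjusted p under 0.05 over all genes (edgeR quasi-likelihood test, Benjamini-Hochberg). Of 14438 genes tested in footprints, 18.5% were called, 10.4% lower and 8.15% higher in KO. Among the 6 members 3 were called lower and 0 higher. The median log2 fold change of the 6 was -0.16, against -0.00015 over all genes tested. Scaling within each assay sets the typical gene near 0, so a change shared by all mRNAs could not be seen. Spread between replicates was checked among genes with a mean of 20 to 500 estimated counts. Their median coefficient of variation of footprint TPM was 5.50% in KO and 5.52% in WT. Counting alone would give 8.22% in KO and 8.18% in WT, so the p-values may be too small. The RNA medians were 8.09% in KO and 7.52% in WT, against 8.89% and 9.17% from counting. Grin2a, Grin2b and Grin3a had at least 647 footprint counts per library, so this check did not cover their footprints. In 8 of the 14 libraries the lowest TPM was identical to that of another library of the same group. Total TPM per library was 1.008e+06 to 1.014e+06, above the fixed sum to which TPM is scaled. The values may have been adjusted between libraries, or an amount added to every value, before deposit. No such step is given in the sources used here, and neither was tested. If so, SE, p and overlap of groups describe adjusted values.

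The labels held up in Fmr1 itself, whose footprints averaged 4.81 TPM in KO and 44.4 TPM in WT. Libraries held 4965844 to 9963716 estimated counts in RNA and 15570998 to 22707685 in footprints. Levels of 13 marker lists were read against a floor, since the lowest TPM per library was 0.880 to 1.00 and no gene could be at 0. Every gene of the CA1, CA3, dentate, interneuron, astrocyte and oligodendrocyte lists averaged at least 2 TPM in both assays. So did the cortical genes, except 1 of the 6 in footprints. A mean of 2 TPM is close to the floor, but sums over the lists were well above it. In KO footprints the mean sum was 155 TPM for 6 CA3 genes and 411 TPM for 8 dentate genes. It was 2513 TPM for 12 interneuron, 4868 TPM for 10 astrocyte and 13308 TPM for 7 oligodendrocyte genes. The lysates thus held transcripts listed as markers of several regions and cell types. The footprint sum of 5 neuron markers was 7308 to 7350 TPM in KO and 7243 to 7400 TPM in WT. Their median log2 fold change was 0.04 in footprints and 0.12 in RNA. Footprint sums of the CA3, dentate, cortical, astrocyte, oligodendrocyte, endothelial and choroid plexus lists also overlapped between the genotypes. Several lists moved with genotype. Over all genes 10.4% were called lower and 8.15% higher in footprints. The summed footprint level of 7 CA1 markers was 324 to 340 TPM in KO and 358 to 367 TPM in WT, with 3 of the 7 lower and 1 higher in the test. In RNA that sum was 553 to 601 TPM in KO and 630 to 690 TPM in WT. The footprint sum of 9 thalamic markers was 177 to 183 TPM in KO and 136 to 178 TPM in WT, with 5 of the 9 called higher and 0 lower. Their RNA sum was 153 to 167 TPM in KO and 102 to 139 TPM in WT. The footprint sum of 9 microglial markers was 520 to 556 TPM in KO and 622 to 647 TPM in WT, with 8 of the 9 called lower, and the RNA sum was 848 to 854 TPM in KO and 997 to 1028 TPM in WT. The footprint sum of 3 oligodendrocyte precursor markers was 102 to 112 TPM in KO and 124 to 132 TPM in WT, with 2 of the 3 called lower and a median log2 fold change of -0.33. Of 12 interneuron markers 5 were called lower and 1 higher in footprints (median -0.15), although their sum was 2395 to 2616 TPM in KO and 2469 to 2618 TPM in WT. The part of these shifts in the subunit values below was not tested, and in bulk lysates fewer cells of a type and less RNA per cell cannot be told apart.

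Libraries also fell into sets that crossed genotype, which the labels do not give. Deviations from the group means over all genes correlated between KO library 3 and WT libraries 1 and 2. They also did so between KO libraries 1 and 2 and WT libraries 3 and 4. These correlations were 0.05 to 0.41 in footprints and 0.14 to 0.35 in RNA. All pairs across these sets were below 0. Deviations sum to 0 within a group, so positive pairs force negative ones, which are not separate evidence. Within the set of KO libraries 1 and 2, the footprint log2 difference from WT libraries 3 and 4 was -0.33 for Grin2a, -0.19 for Grin2b and -0.29 for Grin3a. Within the set of KO library 3, the difference from WT libraries 1 and 2 was -0.36 for Grin2a, -0.24 for Grin2b and -0.29 for Grin3a. In both sets every KO value of these subunits lay below every WT value, as it must where the whole groups do not overlap. The same order held in both sets for Grin1 footprints, which were not called.

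**Figure D1:**
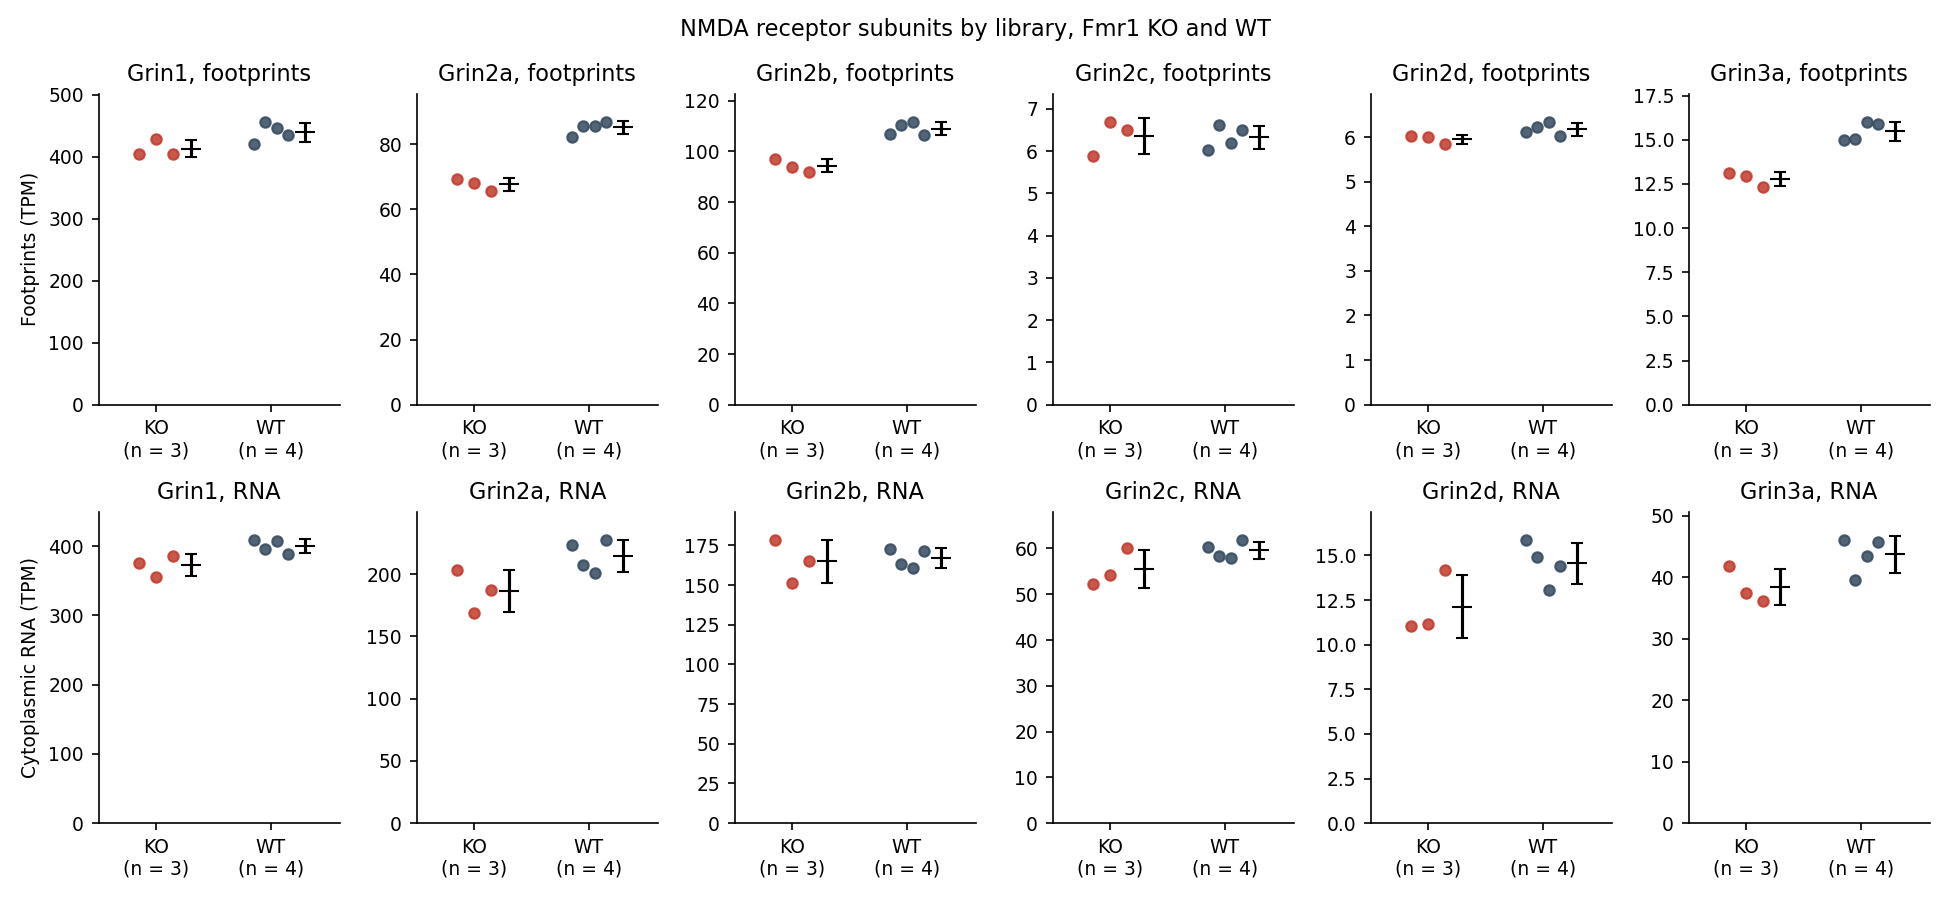
TPM of each subunit in every library, footprints in the upper row and RNA in the lower row, KO left and WT right; points are libraries and the bars beside them are the mean and SD (n = 3 KO, n = 4 WT). The KO footprint points of Grin2a, Grin2b and Grin3a all lie below the WT points, while those of Grin1, Grin2c and Grin2d overlap. Over all genes, 15.6% have all KO footprint values below all WT values, and 15.1% have them above.

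Grin1, the obligatory subunit, lies on chromosome 2 (GRCm38, 25291177 to 25319187) and was the most abundant member in both assays. Its footprints were 405, 428 and 404 TPM in the KO libraries, against 420, 456, 446 and 435 TPM in the WT libraries. The groups overlapped, since the second KO library lay above the first WT library. The log2 fold change was -0.10 ± 0.04 (edgeR adjusted p = 0.126). Grin1 RNA was 376, 355 and 386 TPM in KO and 408, 396, 407 and 388 TPM in WT. Here the groups did not overlap, with KO below WT as in 10.0% of all genes in RNA (KO was above WT in 9.03%), but the log2 fold change of -0.11 ± 0.05 did not pass (edgeR adjusted p = 0.248). Grin1 ranked 457 of 14459 genes by mean footprint TPM in KO and 418 in WT.

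Grin2a, on chromosome 16 (9567901 to 9996083), encodes GluN2A, the subunit of mature forebrain synapses. Its footprints were 69.4, 68.2 and 65.6 TPM in KO, against 82.4, 85.7, 85.8 and 86.9 TPM in WT. The highest KO library was below the lowest WT library, as in 15.6% of all genes in footprints (15.1% had KO above WT). The log2 fold change was -0.34 ± 0.03 (edgeR adjusted p = 3.27e-04), a fall of 20.9%. By footprint p Grin2a ranked 15 of the 14438 genes tested, and 1.63% of genes had a more negative fold change. In RNA Grin2a was at 203, 169 and 187 TPM in KO and 224, 207, 201 and 227 TPM in WT. The first KO library overlapped the WT range. The RNA log2 fold change was -0.21 ± 0.06 and missed the threshold (edgeR adjusted p = 0.0563).

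Grin2b, on chromosome 6 (135713221 to 136173615), encodes GluN2B, whose long cytoplasmic tail binds the kinase CaMKII. Its footprints were 97.2, 94.0 and 91.9 TPM in KO, against 107, 110, 112 and 106 TPM in WT. The groups did not overlap, as in 15.6% of all genes with KO below WT in footprints (15.1% had KO above WT). The log2 fold change was -0.21 ± 0.03 (edgeR adjusted p = 0.00203). Grin2b RNA was 178, 151 and 165 TPM in KO and 173, 163, 161 and 171 TPM in WT. The KO libraries spanned the whole WT range, and the RNA log2 fold change was -0.02 ± 0.05 (edgeR adjusted p = 0.893). Thus Grin2b had fewer footprints in KO beside an RNA level whose fold change was within its SE of 0.

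Grin2c, on chromosome 11 (115249169 to 115267297), encodes GluN2C, which gives channels with weak magnesium block. Its footprints were 5.88, 6.69 and 6.50 TPM in KO, against 6.02, 6.61, 6.19 and 6.50 TPM in WT. The ranges overlapped, and the log2 fold change was -0.0027 ± 0.06 (edgeR adjusted p = 0.985). In RNA Grin2c was at 52.3, 54.2 and 60.2 TPM in KO and 60.3, 58.3, 57.9 and 61.8 TPM in WT. The lower KO libraries fell outside the WT range and the third fell within it. The RNA log2 fold change was -0.10 ± 0.06 (edgeR adjusted p = 0.406).

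Grin2d, on chromosome 7 (45831883 to 45871194), encodes GluN2D, the subunit of the slowest channels. Its footprints were 6.02, 5.99 and 5.84 TPM in KO, against 6.10, 6.23, 6.34 and 6.02 TPM in WT. The ranges touched at their ends, and the log2 fold change was -0.06 ± 0.04 (edgeR adjusted p = 0.488). Grin2d had the lowest RNA level of the members, at 11.1, 11.2 and 14.2 TPM in KO and 15.8, 14.9, 13.1 and 14.4 TPM in WT. The third KO library lay above the third WT library, while the other two lay below all WT libraries. The RNA log2 fold change of -0.23 ± 0.09 did not pass (edgeR adjusted p = 0.170).

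Grin3a, on chromosome 4 (49661611 to 49846023), encodes the glycine-binding GluN3A. Its footprints were 13.1, 12.9 and 12.3 TPM in KO, against 14.97, 15.05, 16.0 and 15.9 TPM in WT. All KO libraries were below all WT libraries, as in 15.6% of all genes in footprints (15.1% had KO above WT). The log2 fold change was -0.29 ± 0.04 (edgeR adjusted p = 0.00128), a fall of 18.0%. In RNA Grin3a was at 41.8, 37.4 and 36.1 TPM in KO and 46.0, 39.6, 43.5 and 45.8 TPM in WT. The groups overlapped through the first KO and the second WT library. The RNA log2 fold change was -0.19 ± 0.06 (edgeR adjusted p = 0.0879). The annotation places Ppp3r2, a calcineurin subunit gene, inside the span of Grin3a, and Ppp3r2 was not analysed here.

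In RNA none of the 6 members was called in either direction, with 4.89% of 13877 genes called (2.77% lower, 2.11% higher). The 6 fold changes were all below 0, with a median of -0.15 against -0.0049 over all genes tested, and 51.3% of all genes had a negative value. Unadjusted RNA p-values were under the 0.05 level for Grin2a (0.00303), Grin3a (0.00693) and Grin2d (0.0256). Grin2a RNA was called lower by DESeq2 (adjusted p = 0.0238), in edgeR with each library's length trend removed (0.0467), without KO library 1 (0.0454), and with one edgeR fit over both assays (0.0172), which also called Grin3a (0.0308). With the library sets as a block, chosen after seeing the data, Grin2a and Grin3a RNA were called at edgeR adjusted p = 0.0463 and 0.0483. Grin2d RNA was called without KO library 3 (log2 fold change -0.38, edgeR adjusted p = 0.0114). Most alternatives left these RNA values uncalled. Grin2a RNA was called under 5 alternatives and not under 11 (edgeR or limma adjusted p = 0.0613 to 0.240). Grin3a RNA was called under 2 and not under 14 (edgeR, DESeq2 or limma adjusted p = 0.0661 to 0.238). Grin2d RNA was called under 1 and not under 15 (edgeR, DESeq2 or limma adjusted p = 0.0608 to 0.423).

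**Figure D2:**
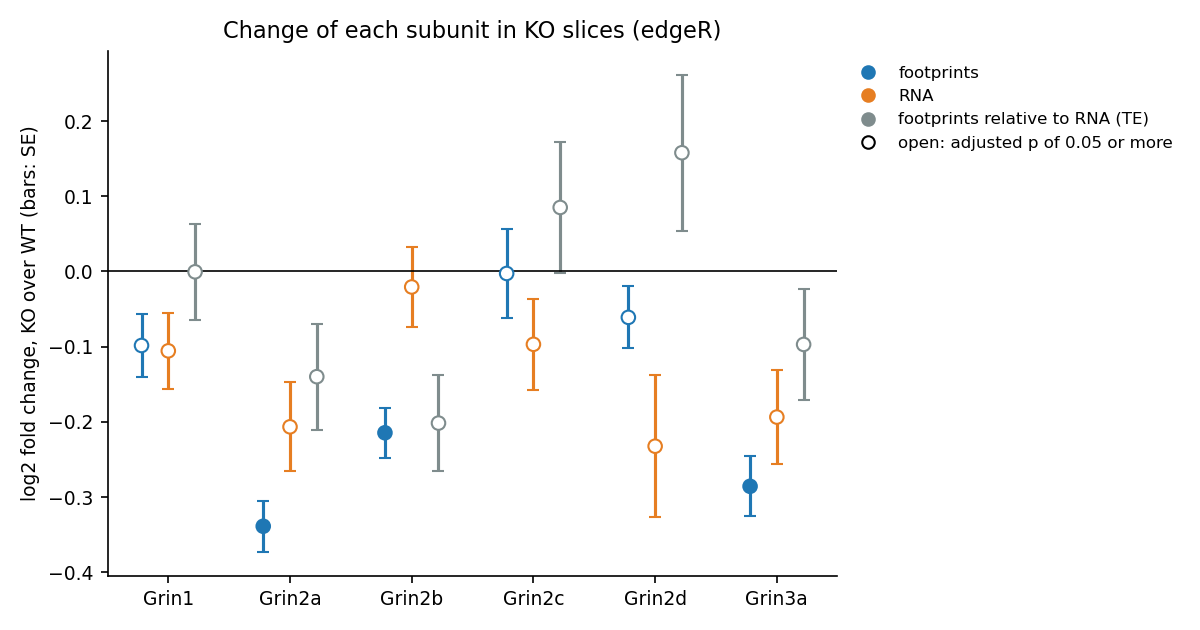
Log2 fold change of KO over WT with its SE for each subunit, in footprints, in RNA and for footprints relative to RNA (edgeR); filled points have an adjusted p under 0.05. Filled points are the footprints of Grin2a (-0.34), Grin2b (-0.21) and Grin3a (-0.29), and the RNA and relative values are open for all 6 members.

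Translational efficiency (TE), the footprint change relative to the RNA change, was tested by an assay-by-genotype interaction term. None of the 6 members was called, and of 14435 genes tested 0.0346% were called (0.0208% lower, 0.0139% higher). Grin2b had the most negative value of the members, -0.20 ± 0.06 (edgeR adjusted p = 0.195, and 0.00432 before adjustment). Grin2a was at -0.14 ± 0.07 (edgeR adjusted p = 0.485) and Grin3a at -0.10 ± 0.07 (adjusted p = 0.702). Grin1 was at -0.00048 ± 0.06 (adjusted p = 1.00), with footprints and RNA changed by nearly the same amount. Grin2c and Grin2d had positive values of 0.09 ± 0.09 and 0.16 ± 0.10 (adjusted p = 0.819 and 0.626). The TE test called 0 members, so a difference between the footprint change and the RNA change was not shown for any subunit.

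The order of the subunits differed between the assays. In footprints it was Grin1, Grin2b, Grin2a, Grin3a, then Grin2c and Grin2d, in both genotypes. Grin2c and Grin2d did not differ beyond their spread, at 6.36 ± 0.422 and 5.95 ± 0.0974 TPM in KO and 6.33 ± 0.271 and 6.17 ± 0.142 TPM in WT (mean ± SD). All other neighbours in that order had ranges that did not overlap. In RNA the order was Grin1, Grin2a, Grin2b, Grin2c, Grin3a and Grin2d. There Grin2a lay above Grin2b in every library, but the ranges of these subunits overlapped in KO. Lengths implied by the ratio of count to TPM were the same in both assays, with Grin2a 1.61 and Grin2b 1.63 times as long as Grin1.

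Footprints per RNA, the ratio of footprint to RNA TPM within a lysate, differed widely between the members. Grin1 had 1.11 ± 0.0845 in KO and 1.099 ± 0.0524 in WT lysates (mean ± SD), above 72.8% of all genes in KO and 72.1% in WT after each lysate was set to its median gene. Grin2b was next, at 0.574 ± 0.0416 in KO and 0.653 ± 0.0389 in WT. Grin2d had 0.498 ± 0.0743 in KO and 0.427 ± 0.0420 in WT. Grin2a had 0.365 ± 0.0336 in KO and 0.398 ± 0.0272 in WT, and Grin3a 0.333 ± 0.0174 in KO and 0.355 ± 0.0241 in WT.

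Grin2c stood at the bottom of the range. Its ratio was 0.113, 0.123 and 0.108 in the KO lysates and 0.0999, 0.113, 0.107 and 0.105 in the WT lysates. The KO lysates overlapped the WT lysates, and all lay far below the lysates of Grin1. Among 14459 genes ranked from the lowest ratio, Grin2c was at position 108 in KO and 96 in WT, so that 0.740% of genes in KO and 0.657% in WT lay below it. RNA counts of Grin2c were 857 to 1756 estimated counts per library and footprint counts 367 to 501. The lowest value of any gene was 0.880 to 1.00 TPM per library, below the Grin2c footprints in all libraries. These footprints were near 6 TPM, so an amount near that floor within every value would alter the ratio and the fold changes. This was not tested. RefSeq places no other gene over the span of Grin2c. Where in the transcript its reads lie was not analysed here.

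**Figure D3:**
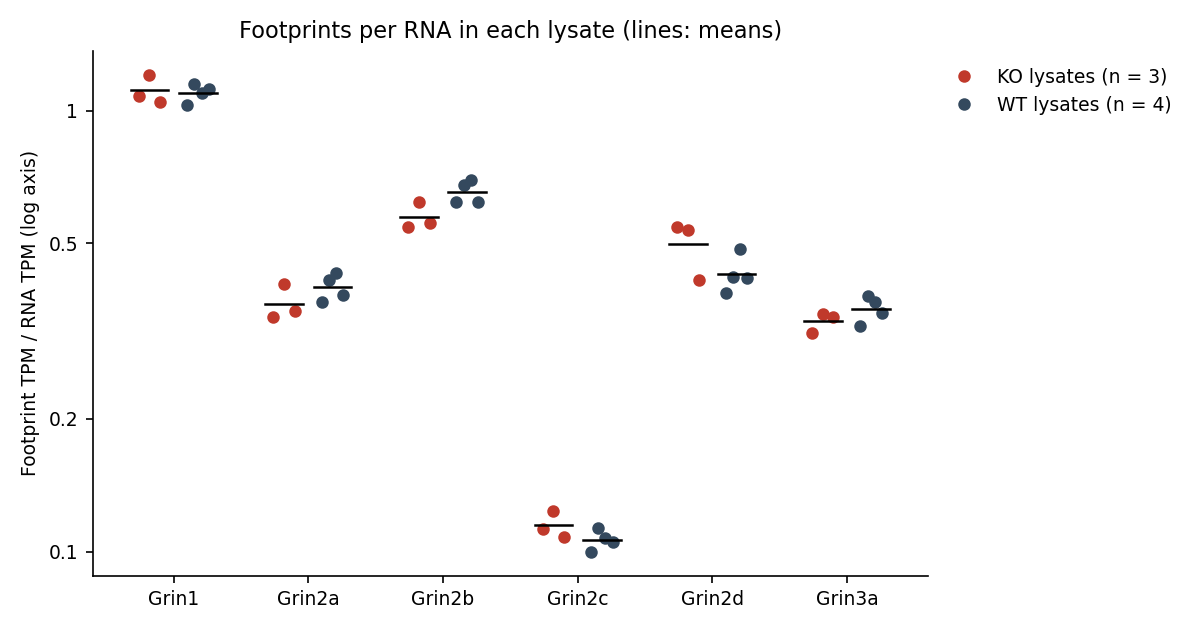
Footprint TPM over RNA TPM of each subunit in each lysate on a log axis, KO left of WT; points are lysates and lines are means (n = 3 KO, n = 4 WT). Grin1 lies near 1.1, Grin2c near 0.11 and the other members between 0.313 and 0.696. KO and WT points overlap for all 6 members, for Grin2b only through the highest KO lysate (0.622).

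GluN2A and GluN2B fill the same place in the receptor, and the Grin2a over Grin2b ratio was set out in each library. In footprints it was 0.714, 0.725 and 0.714 in KO and 0.770, 0.777, 0.768 and 0.817 in WT. In RNA it was 1.14, 1.12 and 1.13 in KO and 1.29, 1.27, 1.25 and 1.33 in WT. The groups did not overlap in footprints or in RNA. Among single genes, 15.6% had all KO below all WT values in footprints and 15.1% above. In RNA these shares were 10.0% and 9.03%. The share among ratios of other gene pairs was not worked out. The log2 difference of KO from WT was -0.12 in footprints and -0.19 in RNA. A two-sided exact permutation test gave p = 0.0571 for each, which is the smallest p that 3 against 4 libraries allow, and 0.0857 after Benjamini-Hochberg adjustment over the 6 ratios tested. With these numbers of libraries this exact test cannot give a p under 0.05, whatever the size of the difference.

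The sum of Grin2a to Grin2d over Grin1 was 0.423 ± 0.0164 in KO and 0.471 ± 0.00909 in WT footprints, again without overlap (exact permutation p = 0.0571, adjusted 0.0857). In RNA it was 1.13 ± 0.0517 in KO and 1.14 ± 0.0679 in WT, with overlapping groups (exact permutation p = 0.800, adjusted 0.800). The Grin3a over Grin1 ratio was 0.0310 ± 0.00119 in KO and 0.0353 ± 0.00156 in WT footprints, without overlap (exact permutation p = 0.0571, adjusted 0.0857), and 0.103 ± 0.00905 in KO and 0.109 ± 0.00774 in WT RNA (exact permutation p = 0.343, adjusted 0.411). Within the Grin2 sum Grin2b made up 54.1% ± 0.341 in KO and 52.7% ± 0.689 in WT footprints, and 39.3% ± 0.657 in KO and 36.6% ± 0.445 in WT RNA. Grin2a made up 38.8% ± 0.178 in KO and 41.2% ± 0.656 in WT footprints. Grin2c held 13.3% ± 1.35 of the sum in KO and 13.1% ± 0.263 in WT RNA, but 3.65% ± 0.305 in KO and 3.06% ± 0.112 in WT footprints.

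**Figure D4:**
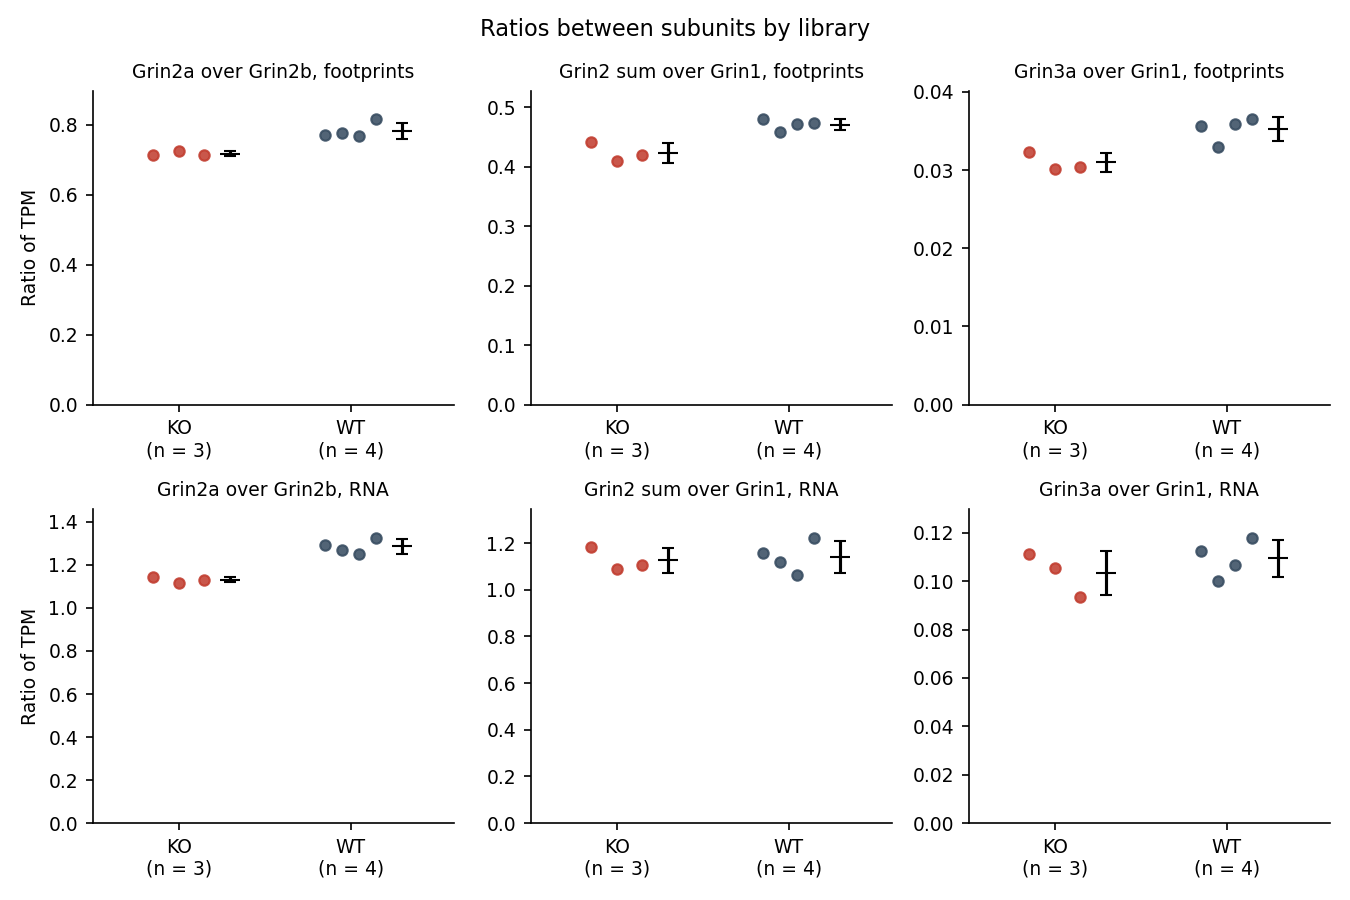
Ratios of TPM between subunits in every library, footprints in the upper row and RNA in the lower row, KO left and WT right; points are libraries and bars the mean and SD (n = 3 KO, n = 4 WT). KO and WT points are separate for Grin2a over Grin2b in both assays and, in footprints, for the Grin2 sum and for Grin3a over Grin1. Among single genes, KO lies wholly below WT in 15.6% and above in 15.1% in footprints, and in 10.0% and 9.03% in RNA.

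Other ionotropic glutamate receptor genes also had called footprint differences, where 10.4% of all genes were called lower and 8.15% higher. Of 4 AMPA receptor subunits, the channels of fast transmission, 3 were lower and 0 higher in KO (median log2 fold change -0.18). Gria1 was at -0.25 ± 0.03 and Gria2 at -0.23 ± 0.03 (edgeR adjusted p = 9.17e-04 and 0.00128), Gria3 at -0.13 ± 0.03 (0.0217), and Gria4 at -0.10 ± 0.04 missed the threshold (0.115). Of 5 kainate receptor subunits 2 were lower and 0 higher (median -0.16), with Grik4 at -0.38 ± 0.04 and Grik2 at -0.21 ± 0.03, while Grik1 (-0.16 ± 0.05) and Grik5 (-0.12 ± 0.05) did not pass. In RNA 0 of the 4 AMPA genes and 2 of the 5 kainate genes were called, against 4.89% of all genes. In TE none of these genes was called, against 0.0346% of all genes. The Grin genes were not tested against these families.

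Footprints of the receptor's scaffold and anchoring genes did not move one way. Of 28 measured, 7 were higher, 4 lower and 17 did not pass in KO footprints (median log2 fold change 0.01). Over all genes 8.15% were called higher and 10.4% lower. Footprints of Actn4 and Actn1, which encode actin cross-linking alpha-actinins, rose by 0.41 ± 0.06 and 0.37 ± 0.06 (edgeR adjusted p = 0.00147 and 0.00233). Those of Dlgap3, whose product links PSD-95 to the Shank scaffolds, fell by 0.27 ± 0.05 (edgeR adjusted p = 0.00413). Those of the scaffold gene Homer2 fell by 0.25 ± 0.05 (edgeR adjusted p = 0.00536). Of the same 28 genes 3 were higher and 4 lower in RNA, where 2.11% of all genes were higher and 2.77% lower.

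Genes of signalling partners were split evenly, with 7 of 38 higher and 7 lower in KO footprints (median -0.01). Over all genes 8.15% were called higher and 10.4% lower. Footprints of Ppp3ca, which encodes the catalytic subunit of the calcium-dependent phosphatase calcineurin, rose by 0.18 ± 0.04. Those of Reln, which encodes the secreted protein reelin of certain interneurons, fell by 0.21 ± 0.04. Those of Rasgrf1, for a calcium-regulated exchange factor of Ras, fell by 0.18 ± 0.04. Those of Nos1, for neuronal nitric oxide synthase, fell by 0.26 ± 0.06. The edgeR adjusted p was 0.00369 to 0.0121 for these 4 genes, Ppp3ca among them. In RNA 2 of the 38 were higher and 0 lower, where 2.11% of all genes were higher and 2.77% lower.

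Among genes that make or move the co-agonists glycine and D-serine, 15 were measured, 1 was higher and 3 were lower in footprints (median -0.03). Over all genes 8.15% were called higher and 10.4% lower in footprints. The transporter genes Slc6a9, for glycine, and Slc1a4, for neutral amino acids, fell by 0.24 ± 0.07 and 0.14 ± 0.04, and Slc3a2, a chaperone of amino acid transporters, fell by 0.15 ± 0.03. Psat1, an enzyme of serine synthesis, rose by 0.14 ± 0.04 (edgeR adjusted p = 0.00820 to 0.0300 for these 4). Of 28 genes of receptor assembly, trafficking and regulation, 4 were higher and 11 lower in footprints (median -0.04). Footprints of Nptx1, for a secreted pentraxin that clusters glutamate receptors, fell by 0.30 ± 0.04. Those of Nlgn1, for a synaptic adhesion molecule, fell by 0.22 ± 0.03 and those of the growth factor gene Ptn by 0.21 ± 0.03. Those of Vps35, for a subunit of the retromer sorting complex, rose by 0.27 ± 0.05 (edgeR adjusted p = 0.00182 to 0.00291 for these 4). In these lists 0 genes of the co-agonist group were called in RNA, and 1 was higher and 4 were lower in the trafficking group. Over all genes 2.11% were called higher and 2.77% lower in RNA.

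**Figure D5:**
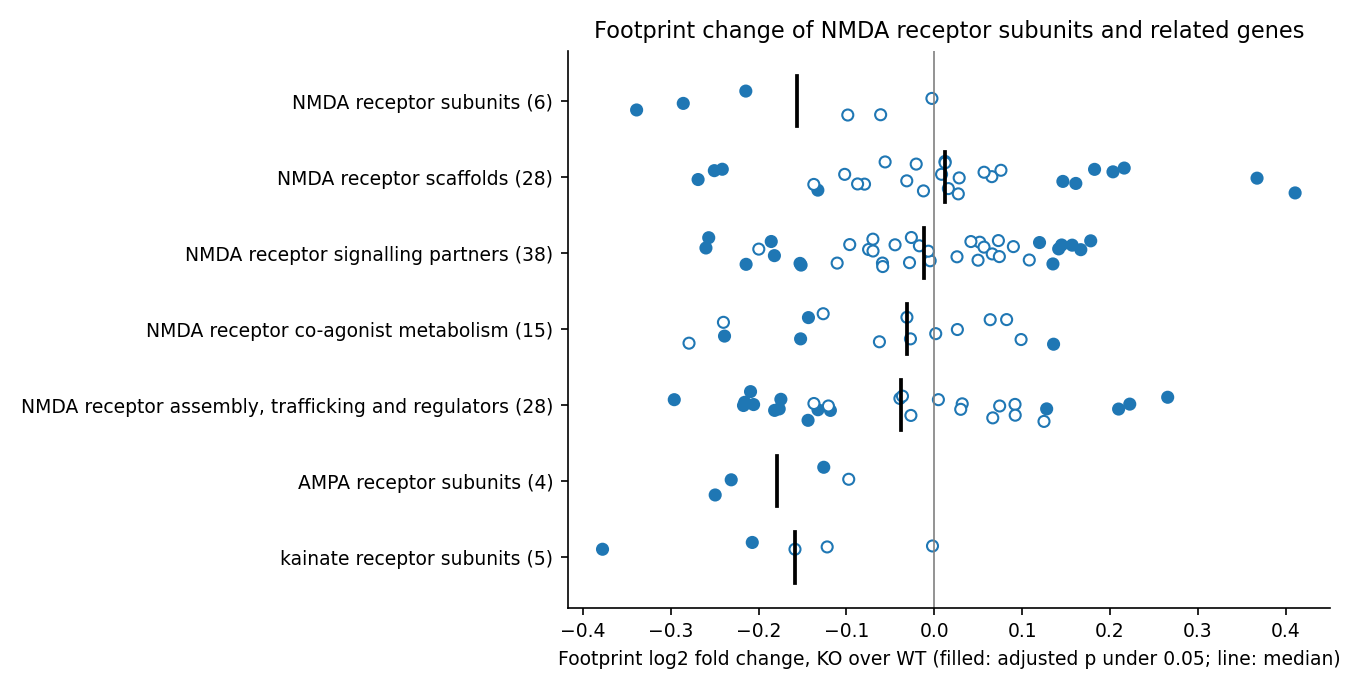
Footprint log2 fold change of KO over WT for each measured gene of the NMDA receptor subunits and of 6 related lists, with the number of genes in brackets; filled points have an edgeR adjusted p under 0.05 and vertical lines are medians. The medians are -0.16 for the NMDA receptor subunits, -0.18 for AMPA and -0.16 for kainate receptor subunits, and 0.01 for the scaffolds, whose called genes lie on both sides of 0.

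Genes whose pattern over the 14 libraries was most like that of each member were taken by Pearson r of log2(TPM + 1), after each assay's mean was subtracted, among genes with a mean of at least 10 TPM in both assays. These libraries share the genotype difference and the lysates, so r is a description only. Grin2a was matched by Tmem131 (r = 0.980), the metabotropic glutamate receptor gene Grm5 (0.977) and Pcnx (0.969). Grin3a was matched by Slitrk3 (0.962), Slitrk1 (0.957) and Ednrb (0.956), and Grin2b by the GABA-B receptor gene Gabbr2 (0.925), Rgmb (0.923) and the calcium pump gene Atp2b3 (0.910). For Grin1 they were Mboat7 (0.969), Itm2c (0.943) and Adra1d (0.943), for Grin2d Shisa7 (0.982), Junb (0.960) and Jph4 (0.957), and for Grin2c Gm1673 (0.895), Scamp3 (0.862) and Neurl1b (0.856). The nearest genes to Grin2a, Grin2b and Grin3a had footprint log2 fold changes from -0.27 to -0.13. Genes picked by likeness over these KO and WT libraries tend to share the member's genotype difference, so this is not a separate result.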

How the data were processed

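Per the submitters' processing notes, reads were handled with cutadapt 1.7.1, RSEM 1.2.11, Trimmomatic 0.32, Bowtie2 2.1.0, TopHat2 2.0.9, bedtools and SAMtools 0.0.19, with mm10 as build. The authors deposited estimated counts and TPM per gene for 14 libraries. The labels list 19 samples, and the other 5 are not analysed here. Count over TPM factors exactly into gene and library, so both assays share gene lengths. The lowest TPM per library is 0.880 to 1.00, and replicates of low genes vary less than counting gives; the step behind this is not given in the sources used here, so counting intervals are left out.

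Estimated counts were rounded and tested in edgeR 4.0.16 under R 4.3.3 (filterByExpr with minimum count 10, TMM, robust quasi-likelihood F-test, Benjamini-Hochberg over all genes), per assay and, for TE, as an interaction over all libraries. Each SE was derived as |log2 fold change| / sqrt(F). Ratios were compared by exact permutation over libraries. Alternatives were DESeq2 1.42.0, limma 3.58.1 on log2(TPM + 1) or log2(TPM + 0.5), RLE scaling, no filter, a length trend removed per library, a replicate or lysate block, the crossed library sets as a block (added after seeing the data), one fit over both assays, and each replicate left out.

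Genes named are the 6 members, Fmr1, up to 4 genes per related list with the smallest footprint p, and for each member the 3 genes of highest likeness. Genes of the related lists named for their RNA, Grin3b, and Grina were picked with their values in view. The members and lists were chosen with earlier results of these data known. Of the 7 related lists, 1 is not reported here. Positions are from RefSeq, GRCm38.p6. Same-numbered footprint and RNA libraries come from one lysate per the labels' protocols, though their deviations from group means correlated only at -0.04 to 0.16.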

Additional observations from a re-analysis of the deposited data

How the results depend on the processing

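The footprint calls of Grin2a, Grin2b and Grin3a kept their direction and stayed past the threshold under all 16 alternatives, with log2 fold changes of -0.35 to -0.30, -0.23 to -0.18 and -0.30 to -0.26 and adjusted p of at most 0.00789, 0.0162 and 0.0189. Grin1 and Grin2d footprints stayed negative and uncalled under the same alternatives, and no member was called in TE under any. Values near 0 changed sign. Grin2c footprints were at 0.00029 with DESeq2, 0.0045 and 0.0042 with limma at pseudocounts of 0.5 and 1, 0.025 with the length trend removed, 0.012 with a replicate block, 0.0014 with the library set block, and -0.046 to 0.069 with single replicates left out. Grin1 TE was at 0.0085 with DESeq2, 0.0086 with RLE, 0.0087 with the length trend removed, 0.014 with limma at both pseudocounts and on lysate ratios, and -0.055 to 0.039 with single replicates left out. Grin2b RNA was at -0.062 to 0.037 with single replicates left out, above 0 without KO replicate 2 (0.037) and WT replicate 1 (0.00050). The log2 Grin2 sum over Grin1 difference in RNA ran from -0.056 to 0.016 with single replicates left out. The number of members called in RNA was 0, against 1 with DESeq2, 1 with the length trend removed, 2 with one fit over both assays, 2 with the library set block, and 0 to 1 with single replicates left out (Grin2a without KO replicate 1, Grin2d without KO replicate 3). With log2(TPM + 1) the footprint to RNA ratio of Grin2c relative to the median gene was -2.65 in KO and -2.74 in WT, against -2.77 and -2.87.

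Over all genes, 2677 were called in footprints and 1304 with the replicate block, in which the 3 members stayed called. In RNA 678 were called, against 418 and 412 with limma at pseudocounts of 0.5 and 1, 1146 with one fit over both assays, 204 with the replicate block, and 236 to 872 with single replicates left out (301 and 241 without KO replicates 1 and 2, and 318, 423 and 236 without WT replicates 1, 2 and 4). In TE 5 were called, against 90 with DESeq2, 69 and 70 with limma at pseudocounts of 0.5 and 1, 15 with the length trend removed, 42 with the library set block, 3 on lysate ratios, 5 with the lysate as a replicate block, and 2 to 68 with single replicates left out (2 and 68 without KO replicates 2 and 3, and 2, 2 and 3 without WT replicates 1, 3 and 4). The causes were not tested. Same-numbered KO and WT libraries did not deviate together (r of -0.44 to -0.0015), so the numbers do not pair the genotypes. The library set block follows sets found in the same data, whose p-values are therefore not independent of that choice. Grin2c and Grin2d footprints, near 6 TPM, are the members closest to the floor of the values.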

Other observations

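Other genes of the receptor's surroundings moved in RNA and were named after their values were seen. The scaffold genes Shank1, Shank3 and Homer3 were lower in KO RNA, at -0.42 ± 0.08, -0.30 ± 0.08 and -0.25 ± 0.06 on the log2 scale (edgeR adjusted p = 0.0130, 0.0320 and 0.0358), as was Dlgap3 at -0.31 ± 0.06 (0.0137). In the same list Dlg3, Actn4 and Nsf were higher in KO RNA, at 0.30 ± 0.07, 0.33 ± 0.07 and 0.24 ± 0.06 (edgeR adjusted p = 0.0196, 0.0205 and 0.0238). The pentraxin receptor gene Nptxr was lower at -0.35 ± 0.07 and Nptx1 at -0.24 ± 0.05 (adjusted p = 0.0157 and 0.0177), as was Bsg at -0.20 ± 0.05 (0.0311), while the ubiquitin ligase gene Nedd4 was higher at 0.29 ± 0.06 (0.0164). The calmodulin genes Calm2 and Calm3, whose products bind GluN1, were higher in RNA at 0.40 ± 0.09 and 0.39 ± 0.09 (adjusted p = 0.0228 and 0.0297), while their footprint log2 fold changes were -0.03 ± 0.06 and 0.05 ± 0.06 (adjusted p = 0.818 and 0.629).

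Grin3b, which encodes GluN3B and is not one of the 6 members, lay at the floor of the values. Its footprints averaged 1.04 TPM in KO and 1.06 TPM in WT, and its RNA 1.53 TPM in KO and 1.17 TPM in WT, with a log2 fold change in RNA of 0.38 ± 0.13 (edgeR adjusted p = 0.365). Grina, named for an association with NMDA receptors but no channel subunit, was abundant, with footprints of 664 TPM in KO, against 646 TPM in WT, and a log2 fold change of 0.03 ± 0.03 (edgeR adjusted p = 0.621).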
